A study of Mus musculus with 28 samples.

Results

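Immediate early genes are described here in single cells sorted from the adult mouse subependymal zone, the neurogenic niche that lines the lateral ventricle. The set holds 10 genes: Fos, Fosb, Jun, Junb, Jund, Egr1, Ier2, Atf3, Btg2 and Dusp1. They were taken by symbol from the 17690 gene rows of the 28 tables and were not chosen by their level. All 10 had transcripts in 23 of the 28 libraries. In the other 5, which were GLAST/EGF library 1 and the 4 libraries of the day-2 sort, the other 9 were detected and Atf3 was not.

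The 28 libraries came from 7 sorts of 4 libraries, each of 96 wells with 1 sorted cell per well, made by SORT-seq (fluorescence-activated sorting into plates and CEL-seq, which counts molecules by a random barcode). All animals were on a Bl/6 background. The GLAST/EGF sort took cells bound by an antibody to GLAST, by fluorescent EGF ligand, or by both. The Prom1/CD24 sort used antibodies to those surface proteins. The Troy-GFP sort took GFP+ cells of Troy-GFPiresCreER mice, in which a knocked-in reporter follows the gene Troy (Tnfrsf19). The Ki67-RFP sort took RFP+ cells of Ki67tagRFP mice, in which a knocked-in reporter follows the proliferation gene Ki67. These 4 sorts used animals of 8 to 10 weeks.

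The other 3 sorts used Ki67iresCreER;Rosa-tdTomato mice given a single dose of 5 mg tamoxifen, which marks cells expressing Ki67 at that time, and their descendants, with tdTomato. The day-2 sort held tdTomato+ cells taken 2 days after the dose, at 8 to 10 weeks. The day-60 sort held tdTomato+ cells taken 60 days after it, at 16 to 19 weeks. The mixed day-60 sort held tdTomato+ cells of the subependymal zone or the olfactory bulb, together with O4+ oligodendrocytes, from animals of 8 to 19 weeks. The labels do not say how many animals gave a library. The p-values below therefore measure the spread between libraries, which may be technical.

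Immediate early genes are transcribed within minutes of a stimulus, without new protein synthesis, when kinase cascades such as the MAP kinases act on factors already bound to their promoters. Many of their products are transcription factors that act on later genes. Fos and Jun family proteins pair to form the factor AP-1. In the adult subependymal zone, slowly dividing neural stem cells give rise to dividing progenitors and then to neuroblasts that migrate to the olfactory bulb. Handling and dissociation of tissue are also known to raise transcripts of this family.

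The genes lie on several chromosomes of GRCm38 (mm10), and all are protein coding. Fos is at chr12:85473890-85477273 and Jun at chr4:95049034-95052222. Jund is at chr8:70698949-70700616, and Btg2 at chr1:134075170-134079120. RefSeq promoters (GRCm38.p6) were matched by symbol for 8 of the 10 genes, all but Egr1 and Ier2. The 250 bases before the RefSeq start of Fos, Btg2 and Dusp1 are shown. They hold the sequence TGACG, the core of the site of CREB and ATF proteins. They were chosen because it lies in more than 1 place (Fos and Dusp1) or in 1 place as its palindrome, read on both strands (Btg2). Capitals mark TGACG or, where the whole palindrome is present, TGACGTCA.
Fos, + strand, chr12:85473640-85473889: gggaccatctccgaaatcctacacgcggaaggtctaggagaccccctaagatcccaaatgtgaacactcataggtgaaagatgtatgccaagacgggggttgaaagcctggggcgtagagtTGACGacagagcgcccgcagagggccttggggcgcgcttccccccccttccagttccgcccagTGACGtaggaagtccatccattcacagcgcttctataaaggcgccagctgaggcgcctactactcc
Btg2, - strand, chr1:134079156-134079405: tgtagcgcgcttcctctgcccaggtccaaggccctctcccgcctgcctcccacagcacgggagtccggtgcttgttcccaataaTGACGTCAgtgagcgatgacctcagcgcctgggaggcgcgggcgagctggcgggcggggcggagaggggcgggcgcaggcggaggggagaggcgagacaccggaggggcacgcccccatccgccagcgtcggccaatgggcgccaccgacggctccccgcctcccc
Dusp1, - strand, chr17:26508473-26508722: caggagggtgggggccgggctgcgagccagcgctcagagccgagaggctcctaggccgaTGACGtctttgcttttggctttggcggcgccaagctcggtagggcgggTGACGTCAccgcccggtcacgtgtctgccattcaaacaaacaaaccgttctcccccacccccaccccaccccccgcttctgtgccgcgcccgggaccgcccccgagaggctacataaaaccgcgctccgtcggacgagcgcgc

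TGACG was found, on either strand, in 6 of the 8 promoters, those of Fos, Fosb, Junb, Atf3, Btg2 and Dusp1. It was found in 17.8% of the 32851 mouse promoters of the same length. The full palindrome TGACGTCA, which contains TGACG on both strands, was found in Btg2 and Dusp1 and in 1.55% of all promoters. The AP-1 site TGANTCA, present in 6.75% of promoters, and the CArG box bound by serum response factor, present in 1.47%, were not in the 8 windows. The EGR site GCGGGGGCG, held by 2.57% of promoters, was in Fosb, and the letters TATAAA, held by 7.59%, were in Fos. These are matches of letters in a short window, and sites further from the start were not searched. The Jund window (chr8:70697489-70697738) does not adjoin the gene start given above, so its lack of matches does not describe the bases next to that start. The Dusp1 window lies inside the annotated gene (chr17:26505590-26562128). So does the Atf3 window (chr1:191183334-191183583, gene chr1:191170296-191218039). Their matches describe the bases before the RefSeq start, not those next to the start of the annotated gene.

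A cell was kept if it held at least 1000 transcripts, which left 1789 of 2688 wells. These were 216 in the GLAST/EGF, 315 in the Ki67-RFP, 64 in the Prom1/CD24 and 311 in the Troy-GFP sort, and 314 in the mixed day-60, 220 in the day-2 and 349 in the day-60 sort. Transcripts per library ranged from 43149 to 572793. Transcripts of 4 Y-linked genes were found in the Troy-GFP and GLAST/EGF libraries and in no library of the other 5 sorts, so comparisons of either with the other sorts also compare the sex of the animals. Libraries 1 and 2 of the Troy-GFP sort and 3 and 4 of the GLAST/EGF sort were run on another flow cell than the other libraries of those sorts. The labels name no flow cell for the 4 day-2 libraries, so a comparison with day 2 cannot be told apart from a difference of run.

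Levels by sort are given as CPM, the share of a library's transcripts times 1e+06, put on a common scale over the 28 libraries by the trimmed mean of M values. Differences are log2 fold changes ± standard error (SE) from limma, with p adjusted by Benjamini and Hochberg over all genes tested, and a gene passed at an adjusted p under 0.05. Such a sum over a library reflects both how many cells of a type it holds and how much of the RNA each cell carries. In the sums by sort these cannot be told apart, and levels within classes of cells follow below.

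**Figure D1:**
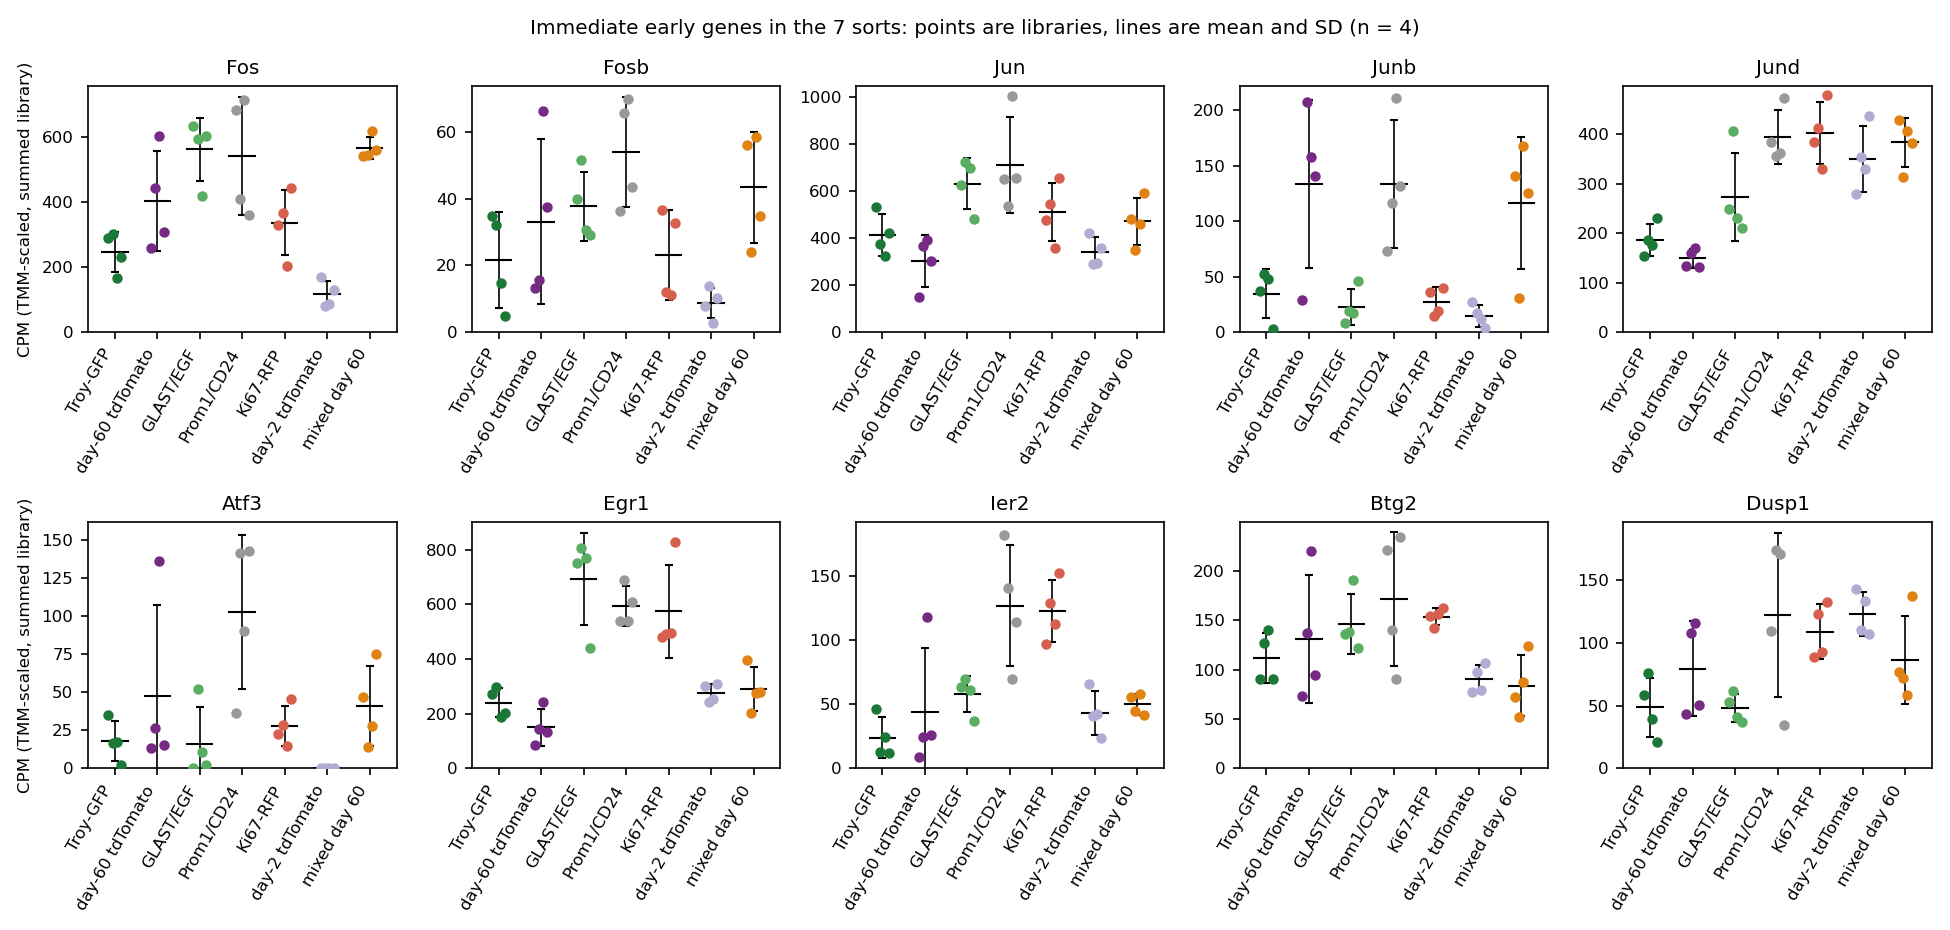
Level of each of the 10 genes (scaled CPM, linear axis) in the 28 libraries, by sort. Each point is 1 library. Fos is lowest in the day-2 libraries (79.2 to 170.2 CPM), and Egr1 is lowest in the day-60 libraries (84.4 to 242.9 CPM).

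Of the Fos family, Fos encodes the AP-1 subunit for which the family is named. Its level was 170.2, 79.2, 84.96 and 129.5 CPM in the 4 day-2 libraries, against 331.4, 367.6, 203.1 and 444.8 CPM in the Ki67-RFP libraries. No day-2 library reached the lowest Ki67-RFP library. The difference of day 2 from Ki67-RFP was -1.53 ± 0.24 (adjusted p = 3.8e-05). The Troy-GFP libraries held 288.3, 301.7, 166.1 and 229.7 CPM, and the GLAST/EGF libraries 634.2, 594.5, 419.3 and 604.0 CPM. Again the groups did not overlap, and GLAST/EGF was higher by 1.18 ± 0.17 (adjusted p = 3.0e-05). The order of the mean levels was mixed day-60 (567.2 CPM), GLAST/EGF (563.0), Prom1/CD24 (542.7), day-60 (404.4), Ki67-RFP (336.7), Troy-GFP (246.5) and day 2 (116.0). The first 3 differed by less than the standard deviation within the Prom1/CD24 libraries (183.3 CPM). Fosb, another Fos family subunit, was at mean levels between 8.65 CPM at day 2 and 53.98 CPM in the Prom1/CD24 sort.

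Jun, the founding Jun family subunit, was at 625.4, 724.3, 695.9 and 479.8 CPM in the GLAST/EGF libraries and at 531.0, 374.3, 325.2 and 420.0 CPM in the Troy-GFP libraries. The GLAST/EGF level was higher by 0.60 ± 0.15 (adjusted p = 0.0054), with 1 library of each sort overlapping the other. Jund encodes the Jun protein known for its steady expression, and its pattern over sorts was another. It was at 385.1, 413.0, 330.7 and 480.3 CPM in the Ki67-RFP and 279.0, 354.8, 329.0 and 437.0 CPM in the day-2 libraries. These 2 sets overlapped, and their difference was -0.16 ± 0.14 (adjusted p = 0.39). In the day-60 libraries Jund was at 133.7, 159.8, 170.0 and 131.8 CPM, below every day-2 library (-1.21 ± 0.17, adjusted p = 4.0e-06).

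Junb, a Jun family member with weaker activating function, was at 28.5, 207.4, 158.0 and 140.3 CPM in the day-60 libraries and at 27.1, 17.2, 11.3 and 3.44 CPM in the day-2 libraries. The day-60 level was higher by 3.00 ± 0.90 (adjusted p = 0.0066). Atf3, a stress-induced partner of Jun proteins, was not detected in any of the 4 day-2 libraries, where 3 transcripts over the group would be 2.55 CPM. Against that floor its mean level was at least 18.8-fold higher in the day-60 sort and at least 10.9-fold higher in the Ki67-RFP sort. Day-60 library 3 held 136.5 CPM of Atf3 and the other 3 held 13.1 to 26.7 CPM.

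Egr1 encodes a zinc-finger factor induced by growth factors and neuronal activity. It was at 480.2, 492.7, 496.9 and 828.6 CPM in the Ki67-RFP libraries and at 274.0, 297.2, 189.6 and 201.2 CPM in the Troy-GFP libraries. The sorts did not overlap, and Ki67-RFP was higher by 1.14 ± 0.17 (adjusted p = 1.3e-06). In the GLAST/EGF libraries Egr1 reached 751.0, 805.8, 770.4 and 441.4 CPM. In the day-60 libraries it was at 84.4, 143.1, 242.9 and 131.9 CPM, below all 4 day-2 libraries, which held 299.8, 243.2, 254.9 and 307.4 CPM. The difference of day 60 from day 2 was -0.96 ± 0.23 (adjusted p = 0.0012), and the libraries of these 2 sorts did not overlap for 61.7% of all genes. Fos, Junb and Egr1 thus moved in different directions between these sorts.

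Ier2, a small nuclear protein of the early response, was at 96.9, 129.2, 113.0 and 152.9 CPM in the Ki67-RFP libraries and at 46.2, 13.2, 24.6 and 11.9 CPM in the Troy-GFP libraries. The difference was 2.38 ± 0.33 (adjusted p = 5.2e-07). Btg2 encodes an antiproliferative protein that recruits the CCR4-NOT deadenylase. It was at 154.0, 141.6, 155.9 and 161.9 CPM in the Ki67-RFP sort and at 77.4, 97.1, 79.5 and 107.1 CPM at day 2 (-0.73 ± 0.18, adjusted p = 0.0030). Dusp1 encodes a phosphatase that inactivates MAP kinases. It was at 143.0, 110.1, 133.3 and 106.9 CPM at day 2 and at 88.8, 122.9, 92.5 and 132.3 CPM in the Ki67-RFP sort, with overlapping libraries (0.23 ± 0.18, adjusted p = 0.36). Among the 7 genes tested at day 2 against Ki67-RFP, 5 were lower (Fos, Ier2, Egr1, Btg2 and Jun), while 14.1% of all genes tested were lower and 14.4% higher. The libraries of these 2 sorts did not overlap for 27.6% of all genes. Scaling by the ERCC spike-ins, RNAs added in equal amount, moved the median of all genes in this comparison to -0.56, and Jund then also passed (-0.72, adjusted p = 0.0019).

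In the Ki67-RFP against the Troy-GFP sort, 5 of the 10 genes were higher and none was lower. The 5 were Ier2, Egr1, Dusp1 (1.12 ± 0.26), Jund (1.03 ± 0.14) and Btg2 (0.39 ± 0.16), and 59.9% of all genes tested passed, 29.5% as higher and 30.5% as lower. The libraries of the 2 sorts did not overlap for 52.7% of all genes. In the GLAST/EGF against the Troy-GFP sort, 5 of 9 were higher (Egr1, Ier2, Fos, Jun and Jund), against 15.1% of all genes higher and 30.5% passing in either direction, and the libraries did not overlap for 29% of all genes. Without Troy-GFP library 2, 3 of them passed. Within the flow cell shared by both sorts, Egr1 (2.00), Fos (1.66), Ier2 (1.92) and Jun (0.88) passed, while Jund (0.67, adjusted p = 0.085) did not. GLAST/EGF against Ki67-RFP gave higher Fos (0.81 ± 0.17) and lower Dusp1 (-1.16 ± 0.22), Ier2 (-1.08 ± 0.21), Jund (-0.57 ± 0.16) and Atf3 (-1.93 ± 0.73) among 9 tested, with 36.5% of all genes passing and 33.5% not overlapping. Prom1/CD24 against Troy-GFP gave 8 of 10 higher, all but Btg2 and Dusp1, against 12% of all genes higher, 25.2% passing in either direction and 28.7% not overlapping. On the spike-in scale, where the median of all genes in this last comparison was -1.20, Jun turned to -0.20.

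Cells were grouped by clustering in which the 10 genes, other early response genes, heat-shock, cell-cycle and ribosomal protein genes were left out. Genes that vary with them were not, so the classes are not wholly independent of them. Clusters were named from marker lists. A cluster of 139 cells led by Thbs4, Notum and Ecel1 did not meet the rule for a name and is called Thbs4-led. Levels by class are CPM of the class's own transcripts, without further scaling.

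The NSC-like class of 543 cells, named from a list of markers such as Aldoc, Glul and Agt, held 330.9 CPM of the 10 genes together. It joins the clusters led by Grin2c, Crym and Agt. No list was set apart for astrocytes, so the class does not separate them from neural stem cells. The Thbs4-led cluster held 1471 CPM, the 318 progenitor-like cells 2458 CPM and the 309 neuroblast-like cells 1526 CPM. The 79 mature neuron-like cells were at 979.7 CPM, the 142 oligodendrocyte-like cells at 1170 CPM and the 23 oligodendrocyte precursor-like cells at 3371 CPM. Endothelial-like cells (61) reached 8900 CPM, and microglia-like cells (47) reached 10738 CPM. These values pool sorts that hold the classes in different shares. In all 6 sorts with at least 5 NSC-like cells, that class had the lowest summed level of the named classes with at least 5 cells. The order of the highest 2 classes differed by sort, with endothelial-like cells at 15797 and microglia-like cells at 10302 CPM in the mixed day-60 sort and at 8407 and 15133 CPM in the day-60 sort. For the pooled values, counting error alone gives 8534 to 9278 CPM for the endothelial-like and 10286 to 11205 CPM for the microglia-like class (95% Poisson intervals).

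**Figure D2:**
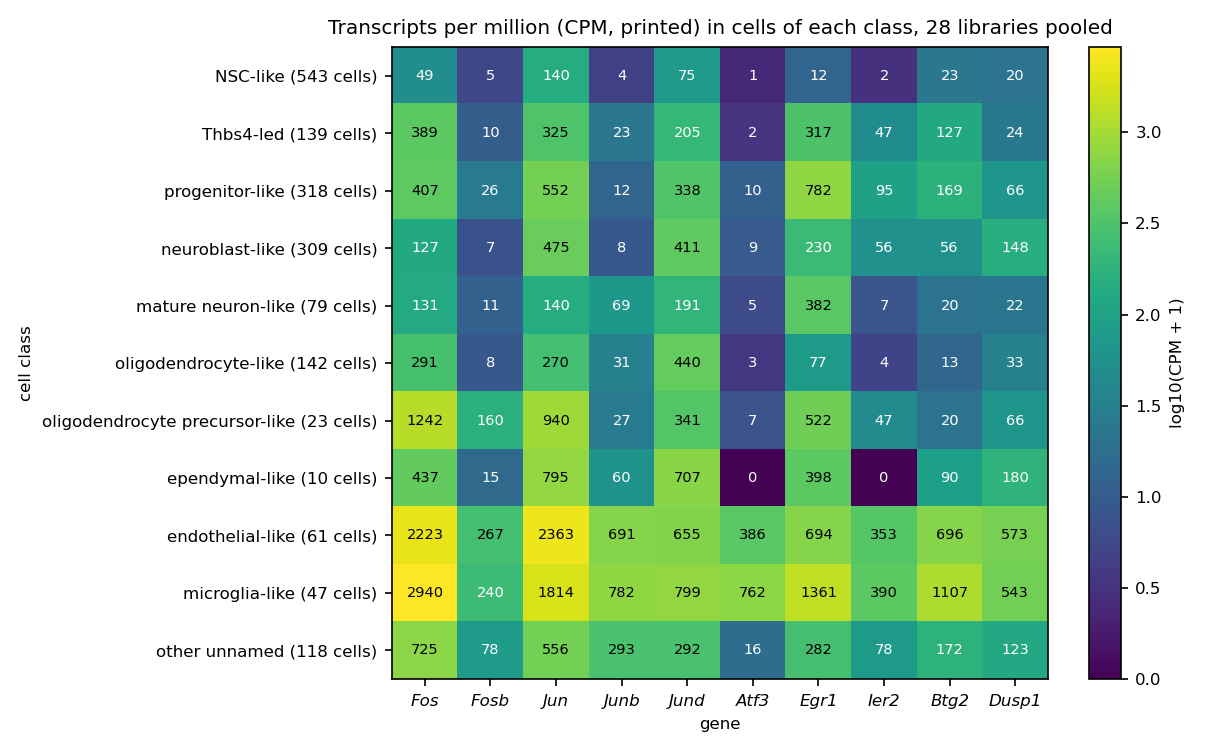
Pooled level of each gene (CPM of the class's transcripts, coloured on a log scale) in each class of cells over all sorts. The endothelial-like and microglia-like rows hold the highest values, such as 2223 and 2940 CPM for Fos, and the NSC-like row the lowest sum of the 10 genes.

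The single genes differed in where they were found. Fos was at 49.5 CPM in NSC-like, 126.9 in neuroblast-like, 407.5 in progenitor-like and 2223 CPM in endothelial-like cells. Egr1 was at 12.4 CPM in NSC-like, 76.7 in oligodendrocyte-like, 381.9 in mature neuron-like and 782.0 CPM in progenitor-like cells. Ier2 was at 2.13 CPM in NSC-like and 94.6 CPM in progenitor-like cells. Jun and Jund were less uneven over the neural classes, with Jund at 74.6 CPM in NSC-like, 338.4 in progenitor-like, 411.4 in neuroblast-like and 440.2 CPM in oligodendrocyte-like cells. Dusp1 was at 147.8 CPM in neuroblast-like against 66.3 CPM in progenitor-like cells. Of the progenitor-like clusters, the cluster led by Miat, Lima1 and Hes6 held 552.3 CPM of Fos and the one led by Top2a, Ccna2 and Pbk held 252.3 CPM. Unnamed clusters also differed, with 1749 CPM of Fos in cells led by Vtn, Dcn and Npy and 39.6 CPM in cells led by Ttr.

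Progenitor-like and NSC-like cells of the same libraries were compared in the 2 sorts that held enough of both. Egr1 was at 20.2, 18.3, 4.36 and 10.1 CPM in the NSC-like cells of the 4 Troy-GFP libraries and at 769.7, 1144, 737.4 and 932.7 CPM in their progenitor-like cells. In the GLAST/EGF libraries the NSC-like cells held 23.5, 19.0, 30.02 and 32.02 CPM of Egr1 and the progenitor-like cells 1029, 1425, 1252 and 793.6 CPM. The classes did not overlap in either sort, as was so for 59.9% of all genes in Troy-GFP and 58.5% in GLAST/EGF. The difference was 5.61 ± 0.35 (adjusted p = 1.0e-11) in Troy-GFP and 4.78 ± 0.32 (adjusted p = 3.8e-10) in GLAST/EGF.

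Fos in NSC-like cells was at 64.6, 85.5, 65.7 and 45.7 CPM in the Troy-GFP libraries, and progenitor-like cells there held 384.2, 510.5, 210.2 and 746.5 CPM. The difference was 2.45 ± 0.27 in Troy-GFP and 2.88 ± 0.31 in GLAST/EGF. Jun (1.96 ± 0.26 and 1.49 ± 0.23), Jund (1.60 ± 0.24 and 1.71 ± 0.30) and Btg2 (2.53 ± 0.38 and 1.60 ± 0.33) were also higher in progenitor-like cells of Troy-GFP and of GLAST/EGF. All 5 genes tested passed as higher in each sort. The same was true of 32.4% of all genes in Troy-GFP and 32.9% in GLAST/EGF. The other 5 genes had too few transcripts for the test. A gene could enter the test through its level in either class alone, so the count of 5 is shaped by that filter. On the spike-in scale the median of all genes was 1.39 for Troy-GFP and 1.55 for GLAST/EGF, while the differences of the 5 genes lay above it, from 2.97 for Jun to 7.06 for Egr1. None of the 6 genes for which the difference between the sorts could be tested passed that test in limma, which 0.156% of all genes did, and the smallest unadjusted p was 0.12.

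**Figure D3:**
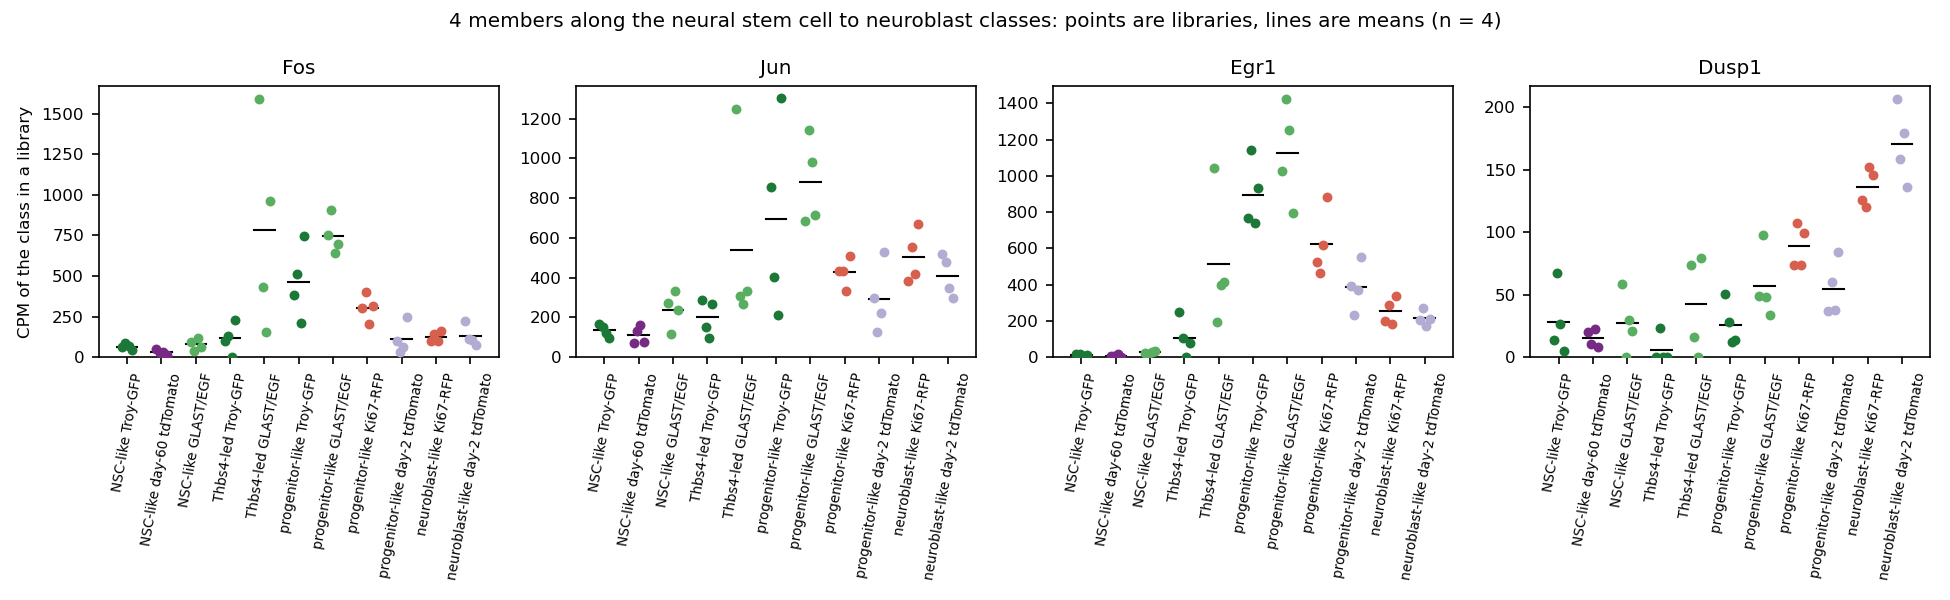
Levels of Fos, Jun, Egr1 and Dusp1 by library (CPM of the class's transcripts, linear axis) in NSC-like, Thbs4-led, progenitor-like and neuroblast-like cells of single sorts. Each point is 1 library with at least 5 cells of the class. Egr1 in Troy-GFP NSC-like cells lies between 4.36 and 20.2 CPM and in progenitor-like cells between 737.4 and 1144 CPM.

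Between progenitor-like and neuroblast-like cells the genes divided. In the Ki67-RFP sort, Egr1 (1.21 ± 0.15), Fos (1.20 ± 0.18) and Btg2 (1.02 ± 0.23) were higher in progenitor-like cells. Dusp1 was lower there (-0.69 ± 0.22, adjusted p = 0.019), although the spike-in scale, with a median of all genes of 0.83, gave it a value of 0.19. Among 7 genes tested 4 passed, with 24.4% of all genes. Jun (-0.32 ± 0.13) and Jund (-0.22 ± 0.14) did not pass and turned to 0.57 and 0.66 on the spike-in scale. Dusp1 in Ki67-RFP neuroblast-like cells was at 125.4, 120.2, 152.3 and 145.7 CPM, and in progenitor-like cells at 73.9, 107.2, 73.4 and 99.6 CPM, without overlap.

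At day 2, 4 of 6 genes passed, with 34.1% of all genes. Btg2 (1.69 ± 0.43) and Egr1 (0.83 ± 0.23) were higher in progenitor-like cells, and Dusp1 (-1.66 ± 0.36) and Jund (-0.84 ± 0.23) were lower. On the spike-in scale, whose median was 1.51, Jund turned to 0.68 and Dusp1 no longer passed (-0.16, adjusted p = 0.69). Fos differed from the Ki67-RFP sort. It was at 101.3, 34.4, 63.2 and 246.3 CPM in the day-2 progenitor-like cells and at 221.7, 111.1, 103.3 and 77.1 CPM in the neuroblast-like cells of the same libraries. These overlapped (-0.26 ± 0.34, adjusted p = 0.59), and the value turned to 1.22 on the spike-in scale. The difference between the sorts in this contrast, Ki67-RFP minus day 2, was 1.45 ± 0.39 for Fos (adjusted p = 0.035) in a test that 1.82% of all genes passed. None of the other 6 genes tested passed it, and of them Jund (0.60 ± 0.25, adjusted p = 0.29) and Dusp1 (0.95 ± 0.42, adjusted p = 0.33) had unadjusted p-values under 0.05. The Fos difference held without Ki67-RFP library 4 or day-2 library 4. It did not pass without any other single library, where it was 1.03 to 1.51, on the spike-in scale (0.86, adjusted p = 0.096), with no filter on low values (1.56, adjusted p = 0.084) or in limma-trend (1.62, adjusted p = 0.094).

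Within progenitor-like cells, day 2 was also compared with Ki67-RFP. Fos was at 301.2, 400.0, 202.6 and 313.0 CPM in the Ki67-RFP and at 101.3, 34.4, 63.2 and 246.3 CPM in the day-2 libraries. Day-2 library 4 lay within the Ki67-RFP range and the other 3 lay below it (-1.84 ± 0.34, adjusted p = 0.00046). Ier2 (-1.47 ± 0.50), Egr1 (-0.73 ± 0.21), Jun (-0.73 ± 0.24) and Jund (-0.70 ± 0.21) were lower as well, making 5 of 7 tested, against 8.71% of all genes. This count fell to 1 without day-2 library 3, to 2 without day-2 library 2 or Ki67-RFP library 4, and to 3 without day-2 library 1. In the Top2a-led cells alone, 28 of the 44 at day 2, Fos (-1.78 ± 0.45), Jun (-0.81 ± 0.28), Egr1 (-0.77 ± 0.25) and Jund (-0.74 ± 0.22) were lower. Ier2 and Dusp1 were tested there and did not pass. In neuroblast-like cells none of the 6 genes tested passed in the same comparison, with 24.6% of all genes passing. Jun alone of the 6 had an unadjusted p under 0.05 in limma (0.027), and the trend version of limma also called none. Other settings did call some: 5 of 6 genes on the spike-in scale, 3 of 7 with a minimum of 500 transcripts, 1 of 10 with no filter, and 1 without Ki67-RFP library 1 or day-2 library 1. The cluster led by Nrep gave 112 of the 162 neuroblast-like cells at day 2 and 26 of 131 in Ki67-RFP. Within it Jun was lower at day 2 (-1.10 ± 0.30, adjusted p = 0.021), and Fos, Egr1, Jund and Dusp1 did not pass.

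Progenitor-like cells of the GLAST/EGF sort held more of 4 genes than those of the Ki67-RFP sort. GLAST/EGF was the only sort labelled with EGF ligand, and an effect of that label was not tested in any comparison of it. Fos was at 751.3, 904.4, 643.9 and 694.9 CPM in GLAST/EGF, above every Ki67-RFP library (1.35 ± 0.16, adjusted p = 2.6e-06). The sorts did not overlap in these cells for 13.7% of all genes. Fosb (1.84 ± 0.42), Jun (1.04 ± 0.15) and Egr1 (0.86 ± 0.17) were also higher among 8 tested, against 5.21% of all genes higher and 8.64% passing in either direction. The values within the shared flow cell were 1.5 for Fos, 2.02 for Fosb, 1.06 for Jun and 0.98 for Egr1, and all 4 passed. The class was made up differently in the 2 sorts: the cluster led by Miat gave 50 of its 69 cells in GLAST/EGF and 69 of 161 in Ki67-RFP, and the rest came from the cluster led by Top2a. In the Miat-led cluster alone, a step chosen after seeing the data, Fos (1.44 ± 0.18), Jun (1.34 ± 0.21) and Egr1 (0.98 ± 0.22) were higher. Btg2, Ier2 and Jund were tested there and did not pass. Fosb was not tested there, and the Top2a-led cells of GLAST/EGF were too few. In the whole class Ier2 (-0.45 ± 0.25), Dusp1 (-0.67 ± 0.29), Btg2 (0.13 ± 0.23) and Jund (-0.08 ± 0.17) did not pass.

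The Thbs4-led cluster was compared with the NSC-like class in 2 sorts. In GLAST/EGF its Fos level was 1591, 431.0, 152.6 and 960.1 CPM, against 94.1, 38.02, 120.7 and 64.1 CPM in NSC-like cells. Every Thbs4-led library was above every NSC-like one (3.15 ± 0.32, adjusted p = 2.7e-09), and 40.9% of all genes did not overlap. Egr1 (3.56 ± 0.44) and Jun (0.72 ± 0.27) were higher too, which made 3 of 3 tested. Of all genes, 17.2% were higher and 42.1% passed. The filter let a gene be tested through either class alone, which shapes such counts. In Troy-GFP the Thbs4-led cells held 99.9, 129.7, 0 and 230.5 CPM of Fos and overlapped the NSC-like cells. There Jund (1.07 ± 0.27), Fos (0.95 ± 0.36) and Jun (0.54 ± 0.21) passed, 3 of 3 tested, with 40.4% of all genes. The count was 1 without library 1 or library 4 and 5 without library 3, and Fos was 0.01 without library 4. The difference between the sorts in this contrast, GLAST/EGF minus Troy-GFP, was 2.32 ± 0.55 for Fos (adjusted p = 0.0058), in a test that 2.16% of all genes passed. It did not pass without GLAST/EGF library 1 (1.91) or 4 (2.04), nor without Troy-GFP library 2 (2.16), nor in limma-trend (2.65, adjusted p = 0.12). The other 3 genes tested, Egr1 (0.97 ± 0.70), Jun (0.21 ± 0.39) and Jund (-0.02 ± 0.50), did not pass.

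Within NSC-like cells few of the genes could be tested between sorts. Fos in the day-60 NSC-like cells was at 49.6, 24.2, 30.7 and 10.96 CPM, overlapping the Troy-GFP values at library 1. The difference was -1.31 ± 0.35 (adjusted p = 0.043), 1 of 3 genes tested, with 1.35% of all genes passing and 6.48% not overlapping. That call did not hold without Troy-GFP library 1, 2 or 3 or without day-60 library 2, 3 or 4, where the count was 0. Jun and Jund were the 2 genes tested between GLAST/EGF and Troy-GFP NSC-like cells, and neither passed in limma or in its trend version (0.118% of all genes passed, 0.0394% as higher and 0.0788% as lower, and 3.9% did not overlap). Jun (0.81 ± 0.26) had an unadjusted p of 0.0031 and Jund (0.14 ± 0.39) one of 0.73. With other class borders the result was another: 4 of 5 genes passed at clustering resolution 0.6 and 4 of 5 with the early response genes kept in the clustering. With library number as a block 1 of 2 passed.

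Outside the stem cell lineage, mature neuron-like cells of the mixed day-60 sort held Egr1 at 567.2, 358.9, 325.4 and 398.0 CPM. Oligodendrocyte-like cells of the same libraries held 109.0, 113.2, 64.1 and 55.4 CPM, without overlap (1.95 ± 0.21, adjusted p = 3.2e-11). The 2 classes did not overlap for 57.9% of all genes. Fos (-1.57 ± 0.27), Jund (-1.53 ± 0.18) and Jun (-1.17 ± 0.24) were lower in the mature neuron-like cells. All 4 tested passed, with 66.7% of all genes. The mixed libraries joined tdTomato+ cells of the subependymal zone or olfactory bulb with O4+ cells. A difference between these classes therefore cannot be told apart from one of tissue, sorting gate or animal. In the Troy-GFP sort, endothelial-like cells held 2672, 2308, 1600 and 125.4 CPM of Fos, where library 4 was far below the other 3. Fos (4.19 ± 0.36), Egr1 (4.57 ± 0.47), Dusp1 (4.12 ± 0.52), Jun (3.89 ± 0.25) and Jund (2.57 ± 0.36) were higher than in NSC-like cells, 5 of 5 tested, against 21.6% of all genes, and 10 of 10 tested passed without library 4. Here too a gene could be tested through its level in either class alone.

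Endothelial-like, microglia-like and unnamed cells were few and in several sorts held a large share of the transcripts of the 10 genes. In the day-60 sort, 21 of 349 cells (6.02%) were endothelial-like or microglia-like, and they held 53.3% of Fos, 67.6% of Ier2 and 89.2% of Atf3 transcripts. With the unnamed clusters other than the Thbs4-led one, 52 cells (14.9%) held 16.9% of all transcripts and 92.3% of Fos, 96.6% of Junb, 90.2% of Egr1 and 81.96% of all transcripts of the 10 genes. The 273 NSC-like cells of that sort (78.2%) held 5.71% of Fos and 4.49% of Egr1. In the Troy-GFP sort, 27 endothelial-like cells of 311 (8.68%) held 36.1% of Fos, 88.1% of Junb and 91.5% of Atf3, and 30 progenitor-like cells (9.65%) held 71.1% of Egr1. In the Ki67-RFP sort, 10 microglia-like cells of 315 (3.17%) held 67.5% of Atf3 and 44.01% of Junb. In the Prom1/CD24 sort, 17 such cells of 64 (26.6%) held 65.3% of Fos. In the GLAST/EGF sort, by contrast, 69 progenitor-like cells of 216 (31.9%) held 85.3% of Egr1 and 68.1% of Fos.

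**Figure D4:**
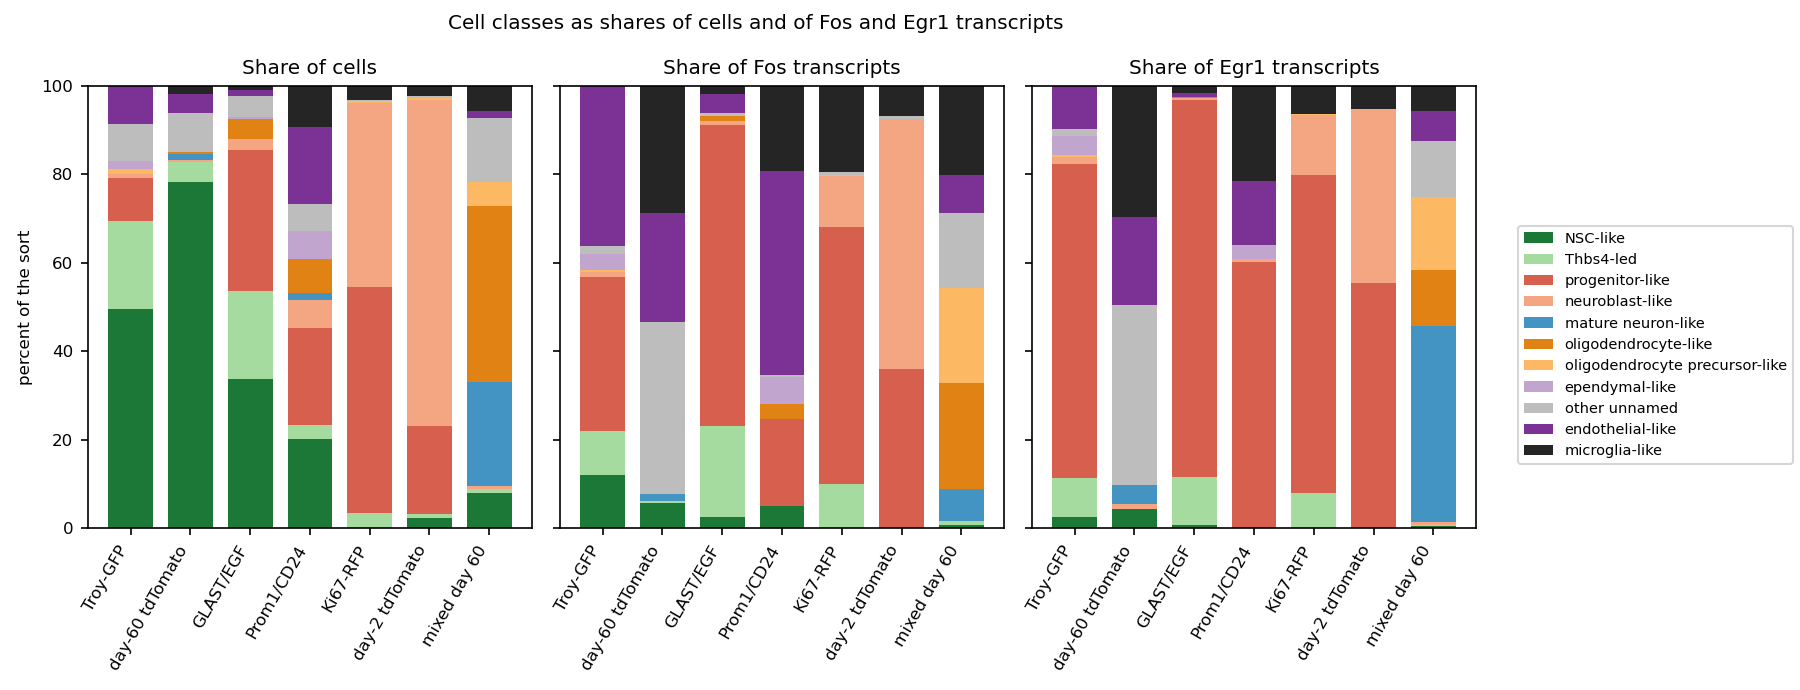
Share (%) of the cells, and of the transcripts of single genes, held by each class in each sort. In the day-60 sort NSC-like cells are 78.2% of cells and hold 5.71% of Fos, while the endothelial-like, microglia-like and other unnamed clusters are 14.9% of cells and hold 92.3% of Fos.

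The marker levels of those cells moved with the sorts. The summed level of 13 endothelial markers was 1089 to 1688 CPM in the day-60, 1131 to 2011 CPM in the Troy-GFP and 1565 to 5603 CPM in the Prom1/CD24 libraries. It was 139 to 201 CPM in the Ki67-RFP libraries, where Flt1, Pltp, Kdr, Tek and Esam were at 0. It was 84.99 to 141 CPM at day 2, where 10 of the 13, among them Cldn5, Pecam1 and Cdh5, were at 0. The summed level of 14 microglia markers was 45.9 to 73.5 CPM in the Troy-GFP, 566 to 1188 CPM in the day-60 and 48.04 to 2207 CPM in the day-2 libraries. The 5 microglia-like cells of day 2 held 286.5 CPM of Fos, against 3761 CPM in the 10 of the Ki67-RFP sort.

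The sort comparisons were therefore repeated on the 1563 cells left without the endothelial-like, microglia-like and other unnamed clusters, a step chosen after seeing the data. The Thbs4-led cluster was kept. One unnamed cluster left out was led by Gstm3 (24 Troy-GFP and 10 GLAST/EGF cells). It had 14 of 20 NSC markers at 2-fold or more over other cells. It had no name because its leading genes included Reg1 and Alpi, listed as genes of cells outside the marker lists. The comparisons with those sorts were therefore also run with it kept. Between day 60 and day 2, Fos had been higher by 1.81 ± 0.28 (adjusted p = 1.6e-05) in all cells and was lower by -1.63 ± 0.37 (adjusted p = 0.00033) in these cells. In all cells 2 of 8 genes were higher (Fos and Junb) and 3 lower (Jund, Egr1 and Dusp1), with 33.9% of all genes higher, 33.6% lower and thus 67.5% passing. In the remaining cells 6 of 6 tested were lower, with 35.6% of all genes lower and 70.6% passing. A gene could be tested there through its level in either sort alone, which shapes this count. Egr1 was then at -3.83 ± 0.33, Dusp1 at -2.81 ± 0.37, Jund at -1.81 ± 0.19, Btg2 at -1.70 ± 0.31 and Jun at -1.54 ± 0.21. The cells compared were also of other classes, since NSC-like cells were 78.2% of the day-60 and neuroblast-like cells 73.6% of the day-2 sort.

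Day 60 was also compared with Troy-GFP, the other sort with many NSC-like cells. In all cells Egr1 was lower (-0.78 ± 0.23, adjusted p = 0.023), 1 of 9 tested, against 7.96% of all genes lower and 6.54% higher. It did not pass without Troy-GFP library 1 or 2 or without day-60 library 1, 2 or 4, and it was -0.51 (adjusted p = 0.34) within the shared flow cell. Without library 1 or library 3 of day 60, 2 genes passed. In the remaining cells all 5 tested were lower, with 12.6% of all genes lower and 23.9% passing. This count too is shaped by the filter, which a gene could meet through its level in Troy-GFP alone. Egr1 was at -3.74 ± 0.43, Fos at -2.43 ± 0.35, Btg2 at -1.56 ± 0.32, Jun at -1.40 ± 0.24 and Jund at -0.87 ± 0.20. With the Gstm3-led cluster kept the same 5 were lower, Fos at -2.35 and Egr1 at -3.66. The remaining Troy-GFP cells hold 30 progenitor-like cells and the day-60 sort none.

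The other sort comparisons kept the direction of those genes that had passed and could still be tested. The mixed day-60 sort had held more Jund (1.26 ± 0.15), Egr1 (0.92 ± 0.25) and Jun (0.62 ± 0.24) than the day-60 sort, 3 of 10 tested against 22.1% of all genes higher, 43.3% passing in either direction and 39.5% not overlapping. On the spike-in scale Jun turned to -0.10, and 5 genes passed without day-60 library 3. In the remaining cells 4 of 4 tested were higher, among them Egr1 (3.67 ± 0.36) and Fos (3.32 ± 0.35), with 27.2% of all genes higher and 52.8% passing. A gene could meet the filter through either sort alone, which shapes this count and the counts in remaining cells below. Prom1/CD24 kept higher Egr1 (1.11 ± 0.26) and Jund (1.01 ± 0.25) than Troy-GFP, and Fos (0.53 ± 0.29) and Jun (0.41 ± 0.28) did not pass there, with 28.2% of all genes passing. In GLAST/EGF against Troy-GFP all 7 genes tested in the remaining cells were higher, with 13.5% of all genes higher and 28.6% passing. Dusp1 went from 0.00 ± 0.31 to 1.11 ± 0.38 (adjusted p = 0.029). With the Gstm3-led cluster kept, 7 of 8 passed and Dusp1 (0.97, adjusted p = 0.053) did not. The lower Fos (-1.31 ± 0.24), Ier2 (-1.51 ± 0.28) and Egr1 (-0.95 ± 0.16) of day 2 against Ki67-RFP passed in the remaining cells as well, where 29.5% of all genes passed. Many of these comparisons share a sort, so their values are not independent of each other.

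**Figure D5:**
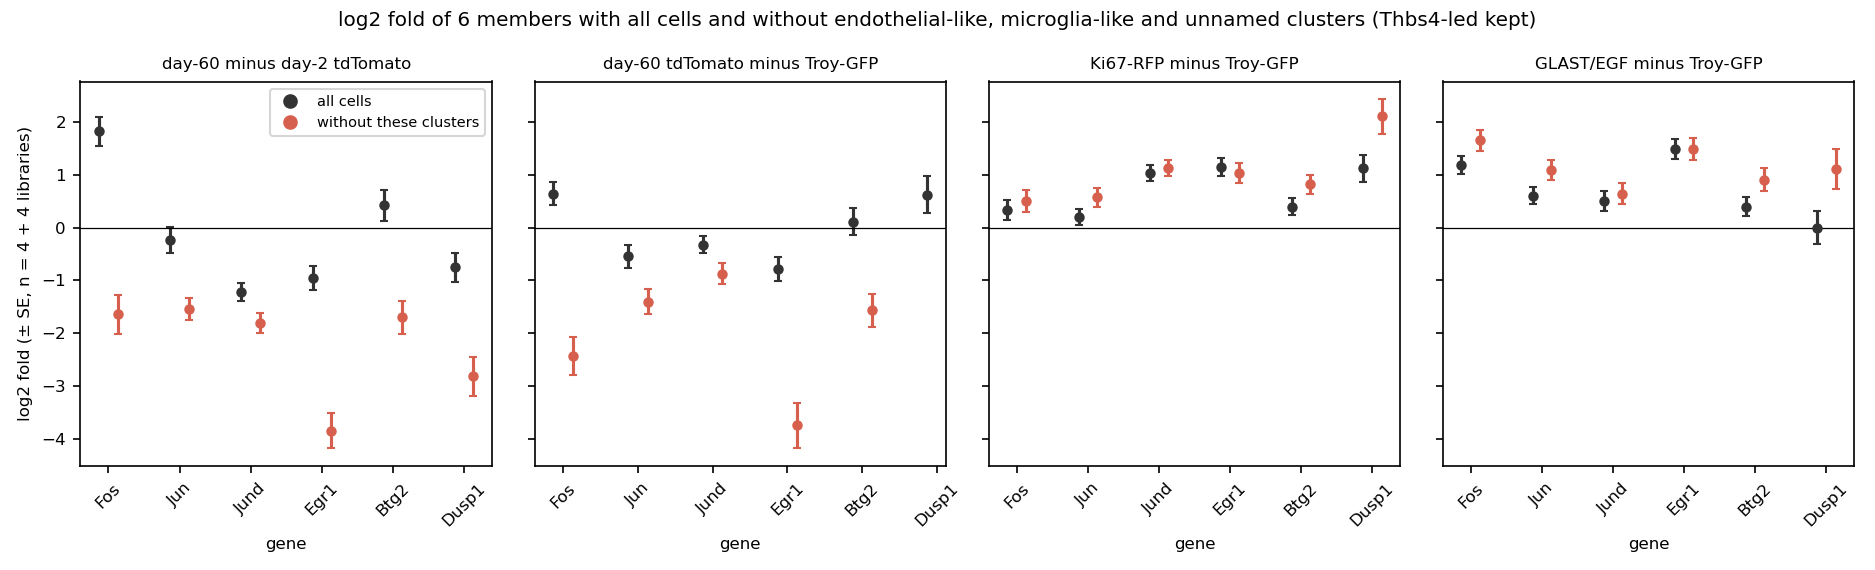
Log2 fold change of 6 of the genes between sorts in all cells and without the endothelial-like, microglia-like and other unnamed clusters; bars are standard errors over the fit. For day 60 against day 2, Fos is at 1.81 in all cells and at -1.63 in the remaining cells.

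To compare single cells at 1 depth, each cell was thinned to 1000 transcripts. After thinning, 71.5% of NSC-like cells held no transcript of the 10 genes, against 19.8% of progenitor-like, 29.8% of neuroblast-like and 2.13% of microglia-like cells. At least 3 of the 10 were found in 0.184% of NSC-like, 15.2% of neuroblast-like, 21.7% of progenitor-like, 57.4% of endothelial-like and 87.2% of microglia-like cells. Fos was found in 5.34% of NSC-like cells (95% exact interval 3.61 to 7.58%, unthinned 16.0%) and in 22.6% of progenitor-like cells (18.2 to 27.6%, unthinned 64.5%). Median depths before thinning were 4949 and 9619 transcripts. Egr1 was found in 2.21% and 37.7% of these classes. The intervals cover counting error only, and no class is known to lack these genes, so a background share was not set.

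Detection of 4 pairs of genes in the same cells was counted in 7 classes. Among progenitor-like cells, Fos was found in 36.7% of the 120 cells with Egr1 and in 14.1% of the 198 without it. Among neuroblast-like cells the shares were 30.9% of 55 and 6.30% of 254 cells, and in the Thbs4-led cluster 55.6% of 18 and 3.31% of 121 cells. In progenitor-like cells Fos was found in 24.8% of cells with Jun and in 21.4% of those without, so this pair was less uneven. In NSC-like cells, where 12 of 543 held Egr1, Fos was found in 8.33% of those and in 5.27% of the others, Btg2 in 0% and 3.77%. Jun was found there in 13.95% of cells with Jund and in 13% of those without. Cells of several libraries and sorts are pooled in these shares.

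The share of cells with a gene was also compared between sorts over libraries, in thinned cells, by exact permutation tests, 80 in all. With 4 libraries against 4 the smallest p such a test can give is 0.029 (two-sided), and 26 of the 80 reached it, but none passed after adjustment (smallest adjusted p = 0.088). Between day 60 and day 2 the share of cells with Egr1 was 4.28% and 17.2%, that with Jund 12.3% and 29.3%, and that with Jun 15.7% and 32.6%, each at an exact p of 0.029. The share with Fos was 10.6% and 12.6% (exact p = 0.63), while its level summed over all cells was higher at day 60.

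Other genes of the pathway were taken from fixed lists. Between progenitor-like and NSC-like cells of the Troy-GFP sort, 3 of 11 other early response genes tested were higher and 5 lower. They included Bhlhe40, a circadian and stress-response repressor, at -4.48, and the stress-response genes Gadd45g at 2.81 and Ier5 at 1.74. In GLAST/EGF, 3 of 10 were higher and 3 lower, with Bhlhe40 at -3.89. Both MAP kinase feedback inhibitors tested, Spry2 and Spred1, were lower in progenitor-like cells of each sort. Of upstream kinases and factors, 0 of 6 were higher and 1 was lower in Troy-GFP. Of heat shock genes, 11 of 13 were higher in Troy-GFP (Dnajb1 3.03, Hsp90aa1 2.97, Hsph1 2.53), and in GLAST/EGF 9 were higher and 1 lower. The members of the set were thus not alone in being higher, and 32.4% of all genes were higher in that Troy-GFP comparison.

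Between day 60 and day 2, 15 of 20 other early response genes tested were higher in all cells and 1 was lower, against 33.9% of all genes higher and 33.6% lower. Endothelial markers, as given above, were also higher at day 60. Without the endothelial-like, microglia-like and unnamed clusters 6 of 13 were higher and 3 lower, against 35.05% of all genes higher and 35.57% lower. In all cells Cyr61, a matricellular protein gene, was at 5.42, Klf4 at 4.75 and Bhlhe40 at 4.20. Between the Ki67-RFP and Troy-GFP sorts 3 of 21 were higher and 11 lower, against 30.5% of all genes lower. Without those clusters 2 of 15 were higher and 5 lower, against 28.12% of all genes higher and 29.97% lower. In all cells Cyr61 was at -5.29, Bhlhe40 at -4.43 and the clock gene Per1 at -3.38, while 5 of the 10 immediate early genes were higher there. In Troy-GFP endothelial-like against NSC-like cells, 10 of 15 were higher and none lower, against 21.6% of all genes higher, among them the flow-responsive factors Klf2 (6.68) and Klf4 (6.41). At day 2 against Ki67-RFP, 8 of 15 were lower and none higher, against 14.1% of all genes lower. Without those clusters 6 of 12 were lower, against 14.2% of all genes. Of 5 AP-1 partners 3 were lower. In mature neuron-like against oligodendrocyte-like cells the activity-regulated Nr4a1 was higher (1.99), and Rhob (-3.70) and Sgk1 (-3.27) were lower.

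Over the 28 libraries, the genes whose level was most like the mean standardised level of the 10 were Gxylt1 (Pearson r = 0.71), Snf8 (0.69), Actb (0.69), Eif2b5 (0.68) and Ptms (0.68), of 8401 genes compared. With the mean of each sort subtracted they were Kiz (0.69), Rpl14-ps1 (0.69), Polr2f (0.66), Mark1 (0.60) and Eng (0.59). None of these was in both sets of 5. The libraries of a sort share their reporter, preparation and cell makeup, and the correlations are given as a description.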

How the data were processed

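The values are the authors' deposited transcript estimates for each gene and well: counts of random barcodes corrected for barcode collisions, an "other" unit since they are not whole numbers. All but 11 of 4801006 values above 0 lay on that correction for 256 barcodes (tolerance 1e-06). The submitters' processing notes list BWA 0.6.2-r126 and the build mm10. Wells with at least 1000 transcripts were kept and clustered in scanpy 1.11.5 (2000 variable genes, 30 components, resolution 1). Class names needed at least 3 markers at 2-fold or more over other cells. A cluster stayed unnamed if another class had more markers among its 10 leading genes. It also stayed unnamed if its depth was low and none of those 10 was a marker of its class. The same held if the 10 included Reg1, Alpi, Ttr, Dcn, Cd79a, Gzma or Ccl5, listed as genes of cells outside the marker lists. Transcripts were summed per library, and per class where a library held at least 5 of its cells, scaled by the trimmed mean of M values and tested with limma 3.58.1 (voom) in R 4.3.3. Genes needed 10 transcripts in 4 libraries (fewer where a group had fewer) and 15 in all, and p was adjusted by Benjamini and Hochberg. A gene could meet this filter through either group alone, so counts of passing genes among those tested are shaped by it. Since the values are not counts, edgeR and DESeq2 were not run. Comparisons of classes within a sort used the library as a block. Library numbers did not pair libraries across sorts. The procedure was tested on simulated data. All 10 genes were eligible for naming in every comparison that tested them. Of the other lists up to 3 passing genes with the largest changes were eligible, and the marker genes and cluster-leading genes are named for identification. The 4 comparisons of progenitor-like, Thbs4-led and endothelial-like with NSC-like cells in Troy-GFP, and of Thbs4-led with NSC-like cells in GLAST/EGF, and the tests of differences between sorts were added after seeing the data. The genes and lists were chosen with earlier results of these data known. Alternatives covered scaling, filters, depth, clustering, the block, flow cell and each library left out in turn.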

Additional observations from a re-analysis of the deposited data

Results flagged for a closer look

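A library that stood far from the other 3 of its sort was found in 4 of the 77 groups of 4 libraries looked at, and chance gives about 1 in 20. Egr1 was at 441.4 CPM in GLAST/EGF library 4, against 751.0 to 805.8 CPM in the other 3 (scaled CPM). In Ki67-RFP library 4 it was at 828.6 CPM, against 480.2 to 496.9 CPM. Ier2 was at 117.9 CPM in day-60 library 3, against 8.74 to 26.3 CPM in the other 3, and Atf3 in the same library was at 136.5 CPM, against 13.1 to 26.7 CPM.

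The effect of cell class on Fos differed between sorts in 2 tests of that difference, and neither held in all settings. Between progenitor-like and neuroblast-like cells it was 1.45 ± 0.39 larger (log2) in the Ki67-RFP than in the day-2 sort (adjusted p = 0.035, limma, with 1.82% of all genes passing). It did not pass on the spike-in scale, with no filter, in limma-trend or without any single library other than library 4 of either sort. Between the Thbs4-led cluster and NSC-like cells the effect was 2.32 ± 0.55 larger in GLAST/EGF than in Troy-GFP (adjusted p = 0.0058, limma, with 2.16% of all genes passing). This difference did not pass without GLAST/EGF library 1 or 4, without Troy-GFP library 2 or in limma-trend.

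Wells with fewer than 1000 transcripts entered no comparison, and all 7 sorts had transcripts of the 10 genes in them, above the level that 3 transcripts would give. Their summed level was 6304 CPM in the Ki67-RFP (95% Poisson interval 4919 to 7958), 4936 CPM in the mixed day-60, 3121 CPM in the day-60, 2658 CPM in the day-2, 2372 CPM in the GLAST/EGF, 2016 CPM in the Troy-GFP and 1862 CPM in the Prom1/CD24 sort. The kept cells of the Ki67-RFP sort were at 2243 CPM, those of the day-60 sort at 1343 CPM and those of the Prom1/CD24 sort at 3426 CPM.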

How the results depend on the processing

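Each comparison was summarised by the number of the 10 genes that passed, and 336 of 415 alternative counts were within 1.5 times the main one. Of 2636 values of single genes under an alternative, 166 no longer passed and 101 newly passed, with their sign kept. Another 19 changed sign and passed in the main or the alternative setting, and the sign changes given below are of this kind. The remaining 2350 kept their side of the threshold, and they include values that changed sign without passing in either setting. Sparse sums limit what can be seen: between sorts, 2 or 3 of the 10 genes could be tested in NSC-like cells. The causes of the shifts below were not tested. Thinning each cell to 1000 transcripts left fewer genes to test. The count was 0 of 5 tested for day 60 against Troy-GFP in all cells. It was 0 of 2 for progenitor-like cells of day 2 against Ki67-RFP. For progenitor-like against neuroblast-like cells it was 0 of 3 in Ki67-RFP and 0 of 1 at day 2. In the following no gene of the set could be tested after thinning, so a count of 0 was the only outcome. These were NSC-like cells of day 60 against Troy-GFP and progenitor-like against NSC-like cells in Troy-GFP. The others were mature neuron-like against oligodendrocyte-like cells, Thbs4-led cells in both sorts and endothelial-like cells. Thinning gave a count of 1 for GLAST/EGF against Ki67-RFP or Troy-GFP, for Ki67-RFP against Troy-GFP and for progenitor-like against NSC-like cells in GLAST/EGF. It gave 2 for Prom1/CD24 against Troy-GFP and for day 60 against day 2, and 3 for day 2 against Ki67-RFP. Jund then turned to -0.32 in GLAST/EGF against Troy-GFP.

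Scaling by spike-ins gave 8 for GLAST/EGF and for Ki67-RFP against Troy-GFP, 2 for Prom1/CD24 against Troy-GFP, 0 for NSC-like cells of day 60 against Troy-GFP, 5 for neuroblast-like and 3 for progenitor-like cells of day 2 against Ki67-RFP. Signs changed for Dusp1 in GLAST/EGF against Troy-GFP (0.87), for Jun in Prom1/CD24 against Troy-GFP (-0.20) and in mixed day-60 against day-60 (-0.10), for Dusp1 (0.19), Jun (0.57) and Jund (0.66) in progenitor-like against neuroblast-like cells of Ki67-RFP, and for Fos (1.22), Jun (0.94) and Jund (0.68) in the same contrast at day 2. Leaving out the endothelial-like, microglia-like and unnamed clusters other than the Thbs4-led one, chosen after seeing the data, gave 2 for Prom1/CD24 and 5 for day 60 against Troy-GFP, and the same counts with the Gstm3-led cluster kept. Signs changed for Fos (-2.43, or -2.35 with that cluster) and Btg2 (-1.56, or -1.50) in day 60 against Troy-GFP, for Fos (-1.63) and Btg2 (-1.70) in day 60 against day 2 and for Dusp1 in GLAST/EGF against Troy-GFP (1.11).

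NSC-like cells of day 60 against Troy-GFP gave 0 with a minimum of 500 or 2000 transcripts, with no filter, with limma-trend, with equal weight per cell, with clustering resolution 1.5, with early genes kept in the clustering and within the shared flow cell. NSC-like cells of GLAST/EGF against Troy-GFP gave 4 at resolution 0.6 and 4 with early genes kept. Equal weight per cell gave 0 for day 60 and 2 for GLAST/EGF against Troy-GFP and 1 for Thbs4-led cells in GLAST/EGF and in Troy-GFP, where Fos turned to -0.0074. With limma-trend the counts were 3 for day 60 against Troy-GFP, 3 for progenitor-like cells of day 2 against Ki67-RFP and 1 for Thbs4-led cells in Troy-GFP, where Fos turned to -0.023. With a minimum of 500 transcripts, neuroblast-like and progenitor-like cells of day 2 against Ki67-RFP each gave 3. The Nrep-led cluster of neuroblast-like cells alone, chosen after seeing the data, gave 1. With no filter, neuroblast-like cells gave 1 and endothelial-like cells 10. With all 7 sorts in 1 fit, day 60 against Troy-GFP gave 2. Within the shared flow cell it gave 0, Thbs4-led cells in Troy-GFP 1 and endothelial-like cells 2.

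Library numbers correlated little across sorts, so no pairing was taken from them. With library number as a replicate block, day 60 against Troy-GFP gave 3 and NSC-like cells of GLAST/EGF against Troy-GFP 1. Without the replicate block for libraries, Thbs4-led cells in Troy-GFP gave 1. With each library left out in turn, the counts were 4 to 7 for GLAST/EGF against Ki67-RFP, 3 to 6 for GLAST/EGF, 4 to 7 for Ki67-RFP, 7 to 9 for Prom1/CD24 and 0 to 2 for day 60, each against Troy-GFP. They were 2 to 5 for mixed day-60 against day-60, 4 to 6 for day 60 against day 2 and 4 to 6 for day 2 against Ki67-RFP. Within classes they were 0 to 1 for NSC-like cells of day 60 against Troy-GFP, 0 to 1 for neuroblast-like and 1 to 5 for progenitor-like cells of day 2 against Ki67-RFP. Between classes they were 1 to 5 for Thbs4-led cells in Troy-GFP and 2 to 4 in GLAST/EGF, 5 to 10 for endothelial-like cells, 5 to 6 and 5 to 5 for progenitor-like against NSC-like cells in GLAST/EGF and Troy-GFP, and 3 to 5 for progenitor-like against neuroblast-like cells in both sorts. The comparison of microglia-like with oligodendrocyte-like cells was not run, since 2 libraries held at least 5 microglia-like cells.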
